A study of Mus musculus with 2 samples.

Results

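The genes of 2 CC chemokine receptors and 7 CC chemokines were followed across the cells of inflamed mouse gingiva. These were the receptor gene Ccr2, grouped with Ccl2, Ccl7, Ccl8 and Ccl12, and the receptor gene Ccr4, grouped with Ccl17 and Ccl22, together with Ccl24. The 9 genes were taken by symbol from the feature tables, where all 9 were found among 32285 genes. One sample was labelled normoglycemic and 1 diabetic, each a single-cell library of gingival cells pooled from 4 mice, so neither condition had a replicate. The mice of both groups were CD11CCre-/-;FoxoLL, on a mixed C57B6 and FVB background, with loxP sites in Foxo1 but no Cre recombinase, and so with normal Foxo1 protein per the series description. The protocol text was the same for both samples. Diabetes was induced with streptozotocin, a toxin of pancreatic beta cells, inflammation was induced with bacteria for 2 weeks, and cells were taken after a waiting period of 2 weeks. Ages were not given in the sources used here. Sorting removed dead cells, CD31+ endothelial cells and red blood cells and kept CD45+ leukocytes, with a 20% enrichment of CD11c+ cells, so the size of a cell class here is not its size in the tissue.

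CC chemokines are small secreted proteins that guide leukocytes along a gradient, and they act through receptors coupled to G proteins. CCR2 lets monocytes leave the bone marrow and enter inflamed tissue, and mouse CCL2, CCL7 and CCL12 are its main ligands. Mouse CCL8 acts chiefly through CCR8. CCL17 and CCL22 bind CCR4, a receptor of regulatory T cells and of T cells that home to skin and mucosa, and are made by dendritic cells. CCL24, or eotaxin-2, binds CCR3 on eosinophils and is made by macrophages under type 2 cytokines such as interleukin 4.

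The median cell held 5302.5 unique molecular identifiers (UMIs) among the 10948 normoglycemic cells analysed and 4631.5 among the 10260 diabetic cells, and 31 barcodes occurred in both libraries. Each cell was assigned to a class when it scored at least 0.25 for that class's marker genes, led the next class by at least 0.05 and held at least 3 of the markers. No member gene was a marker. Class names below stand for cells that resembled that type by these markers (macrophage-like cells, and so on). Ratios were formed for the 14 classes that both libraries filled with 20 cells or more, and in each of them the class's own markers outnumbered those of any other class among the 10 leading genes. The gate chose the cells by these markers, so this is no separate test of the class names. The gate left 1012 normoglycemic and 1021 diabetic cells without a class, and 491 and 400 of the gated cells led by less than 0.05 beyond the limit. Non-leukocytes were 59 normoglycemic cells (0.539%) and 767 diabetic cells (7.48%) in spite of the CD45+ sort. A level is the gene's summed UMIs per 1000000 UMIs of its class (CPM). Ratios set the diabetic over the normoglycemic library, and the 95% intervals cover counting error only, since cells of 1 pool are no replicates of a condition. A ratio of at least 1.5 in either direction was called higher or lower where the gene had at least 10 CPM in the higher library and 20 UMIs over both. In summed counts of a class, fewer cells that make a transcript and less of it per cell cannot be told apart.

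The genes Ccl2, Ccl7, Ccl12 and Ccl8 form 1 cluster on chromosome 11 of GRCm38 (GENCODE M21), Ccl2 at 82035571 to 82037453, Ccl7 at 82045712 to 82047525, Ccl12 at 82101845 to 82103400 and Ccl8 at 82115185 to 82116799, all on the plus strand and together spanning 81.2 kb, with the eotaxin gene Ccl11 between Ccl7 and Ccl12. Ccl22 (94745590 to 94751699) and Ccl17 (94810453 to 94812036) lie together on chromosome 8 with Cx3cl1 between them, over 66.4 kb. Ccl24 is on chromosome 5 (135569937 to 135573049, minus strand), Ccr4 on chromosome 9 (114490316 to 114504916, minus strand) and Ccr2 on the same chromosome (124101950 to 124113557, plus strand). The upstream sequences of Ccl8 and Ccl12 are shown because both genes were lower together in macrophages, and that of Ccl17 because it was lower in 3 dendritic cell classes. RefSeq's table (GRCm38.p6) held 6 of the 9 genes. The 250 bases before the start of Ccl8 (chr11:82114935-82115184, plus strand) and Ccl12 (chr11:82101595-82101844, plus strand) held no annotated exon, and capitals mark the 3 runs of 8 bases that both share at distances from the start that differ by at most 10 bases.
Ccl8: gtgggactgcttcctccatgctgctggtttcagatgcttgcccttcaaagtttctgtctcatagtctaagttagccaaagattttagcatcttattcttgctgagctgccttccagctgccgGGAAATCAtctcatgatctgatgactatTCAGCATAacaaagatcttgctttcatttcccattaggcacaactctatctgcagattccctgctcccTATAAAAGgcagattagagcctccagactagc
Ccl12: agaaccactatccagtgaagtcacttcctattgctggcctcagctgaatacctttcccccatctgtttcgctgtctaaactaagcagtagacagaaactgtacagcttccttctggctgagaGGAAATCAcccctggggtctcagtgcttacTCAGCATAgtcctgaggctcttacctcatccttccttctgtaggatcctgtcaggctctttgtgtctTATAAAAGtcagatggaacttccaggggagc
The run nearest the start, TATAAAAG, contains the letters of a TATA box and begins 32 bases before the start of Ccl8 and 31 before that of Ccl12. It occurred, on either strand, in 1.51% of the 32851 promoters of the same length. The other runs, GGAAATCA (128 bases before the start in both) and TCAGCATA (100 and 98 bases), occurred in 0.983% and 0.481%. Of 5 motifs searched on both strands in the 3 promoters shown (TGANTCA of AP-1, a kappaB site, the STAT6 site of TTC and GAA spaced by 4 bases, an interferon response element and GAGGAAGT of PU.1), none matched in Ccl8 or Ccl12. In Ccl17 (chr8:94810203-94810452, plus strand) capitals mark 1 match of the STAT6 letters.
Ccl17: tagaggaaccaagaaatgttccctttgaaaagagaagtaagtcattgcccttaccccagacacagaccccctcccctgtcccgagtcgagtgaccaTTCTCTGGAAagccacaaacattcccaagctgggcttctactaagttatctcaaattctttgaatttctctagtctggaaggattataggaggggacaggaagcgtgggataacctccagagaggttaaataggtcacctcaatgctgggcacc
This match begins 154 bases before the start, and the letters occurred in 5.85% of all promoters. No other of the 5 motifs matched there. A match describes letters, not binding.

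Over all analysed cells, Ccl2 was the most abundant ligand of the 9 genes, with 38245 normoglycemic UMIs (430 CPM) and 38363 diabetic UMIs (493 CPM), and Ccl7 came next with 340 and 319 CPM. Neither total differed by 1.5-fold between the libraries (ratios 1.15 and 0.938). Ccl8 fell from 136 to 77.0 CPM, a ratio of 0.565 (95% interval 0.548 to 0.583), Ccl12 from 36.5 to 23.4 CPM (0.641, 0.605 to 0.679) and Ccl22 from 78.4 to 51.0 CPM (0.650). Ccl17 was at 109 and 74.4 CPM (0.681) and Ccr2 at 265 and 204 CPM (0.769). Ccl24 rose from 23.3 to 35.6 CPM (1.53, 1.44 to 1.62). Ccr4 was rare, with 176 normoglycemic and 42 diabetic UMIs (1.98 and 0.539 CPM, ratio 0.272, 0.190 to 0.383). These totals also move with the classes each library held. With the non-leukocyte classes left out, but cells without a class kept, the ratios of Ccl12 (0.717) and Ccl22 (0.732) were within 1.5-fold. That of Ccl8 was then 0.584, that of Ccl24 1.72 and that of Ccr4 0.308.

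**Figure D1:**
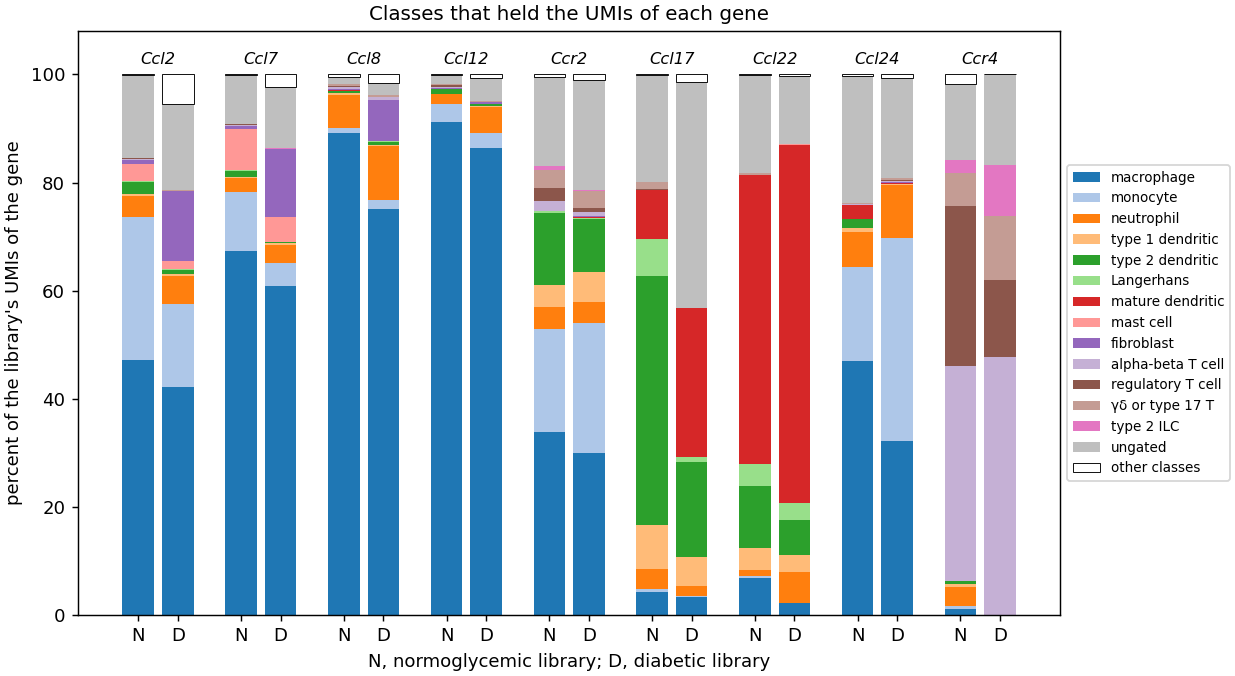
Stacked bars give the percent of each gene's UMIs (vertical axis) that each class held, in the normoglycemic (N) and the diabetic (D) library, with ungated cells in grey. Macrophages held most of Ccl8 and Ccl12 (75.1% to 91.2%), mature dendritic cells most of Ccl22 (53.4% and 66.1%), and T cell classes most of Ccr4.

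Macrophages were the main source of all 4 chemokine transcripts grouped with Ccr2 here. They were 13.1% of the cells in both libraries and held 47.1% and 42.1% of the Ccl2 UMIs (normoglycemic and diabetic), 67.4% and 60.8% of Ccl7, 89.2% and 75.1% of Ccl8 and 91.2% and 86.3% of Ccl12. The level per UMI was another matter: mast cells, only 42 and 31 cells with 0.190% and 0.147% of the UMIs, stood far above every other class for Ccl2 and Ccl7. Their Ccl7 reached 13661 CPM (interval 13109 to 14230) in the normoglycemic and 9847 CPM (9280 to 10440) in the diabetic library, and they held 7.63% and 4.53% of all Ccl7 UMIs. Their Ccl2 was at 7130 and 4678 CPM. Macrophages came next for Ccl7 with 1099 and 989 CPM, and the 254 diabetic fibroblasts had 790 CPM. Ccl2 in the normoglycemic library stood at 1050 CPM in monocytes and 973 CPM in macrophages, with intervals that did not overlap. In the diabetic library the order below mast cells was fibroblasts (1253 CPM), macrophages (1058 CPM), and then monocytes (692 CPM) and mural or muscle cells (679 CPM), whose intervals overlapped.

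The proportion of the neighbouring genes Ccl7 and Ccl2 differed between these sources. Mast cells held 1.92 Ccl7 UMIs per Ccl2 UMI in the normoglycemic and 2.10 in the diabetic library, macrophages 1.13 and 0.935, and monocytes 0.321 and 0.176. Ccl7 was the leading transcript of the pair in mast cells and the lesser one in monocytes, in both libraries. These ratios compare UMIs of transcripts counted at their 3' ends, so gene length does not enter. Of the normoglycemic macrophages with a Ccl7 UMI, 88.8% also had a Ccl2 UMI, and 87.0% of the diabetic ones, beside 67.8% and 68.1% of all macrophages. Expression was uneven among cells: the tenth of macrophages with the most UMIs of the gene held 55.1% and 58.0% of the Ccl2 UMIs but 88.0% and 91.8% of the Ccl8 UMIs.

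**Figure D2:**
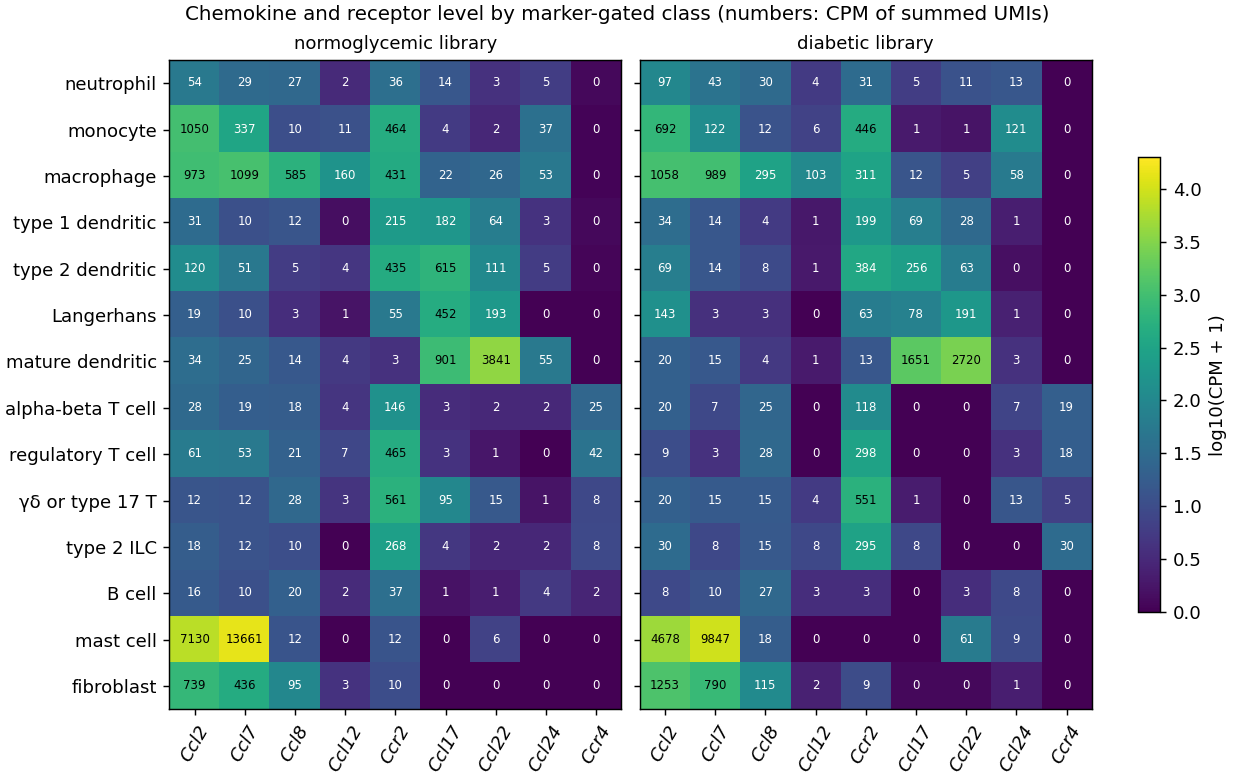
Rows are the 14 marker-gated classes, columns the 9 genes, and the colour gives log10(CPM + 1), with the CPM of summed UMIs written in each field (left, normoglycemic library; right, diabetic library). Mast cells lead for Ccl2 and Ccl7, macrophages for Ccl8 and Ccl12, mature dendritic cells for Ccl22, and Ccr2 is spread over myeloid, T and innate lymphoid classes.

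Ccl8 and Ccl12 were lower in the macrophages of the diabetic library. The 1436 normoglycemic macrophages had 585 CPM of Ccl8 and the 1340 diabetic ones 295 CPM (ratio 0.505, 0.488 to 0.523). Over the 12 alternative settings it lay between 0.373 and 0.551. Ccl12, a CCR2 ligand found in mice, was at 160 and 103 CPM (0.644, 0.606 to 0.685), between 0.557 and 0.662 over its 12 settings. Both were lower among cells called male by Y-linked transcripts and among cells called female by Xist. Ccl8 was at 716 and 267 CPM in male cells and at 469 and 258 CPM in female cells (normoglycemic and diabetic), and Ccl12 at 120 and 70.4 CPM and at 221 and 141 CPM. Both libraries held cells of either call, which come from different mice of a pool. Ccl12 was higher in female than in male macrophages within each library. The share of macrophages with a Ccl8 UMI, after each cell was thinned to 1000 UMIs, was 15.2% (13.3% to 17.2%) and 11.8% (10.1% to 13.7%), against 34.7% and 26.5% unthinned. B cells served as background, with medians of 4652 and 4338 UMIs against 11731.5 and 10536.5 in macrophages, and showed 2.79% and 1.42% after thinning and 9.34% and 13.5% before it. In levels, B cells had 19.9 and 27.4 CPM of Ccl8, so values of that size in other classes do not exceed background.

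In macrophages, 4 of 8 tested members were lower and 0 higher, beside 3.98% of 7495 genes lower and 2.41% higher. The median log2 ratio of the 8 was -0.55, and of all genes -0.01. The called members were Ccl8, Ccl12, Ccl17 and Ccl22. The last 2 were sparse here. Ccl22 was at 25.9 and 5.44 CPM (0.210), but 1 normoglycemic cell held 49.9% of its UMIs. Without the top cell of each library the ratio was 0.380, in clusters it was 1.36 and in female cells 1.29. Ccl17 was at 22.3 and 12.5 CPM (0.560) and reached 1.07 with a stricter gate and 1.05 with the highest doublet scores removed. Ccl2, Ccl7, Ccr2 and Ccl24 stayed within 1.5-fold.

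Among macrophage subsets, Ccl8 was highest in the resident one. Subsets were set by markers: resident cells by genes such as Lyve1 and Folr2, lipid-associated cells by genes such as Gpnmb and Spp1, and inflammatory cells by genes such as Arg1 and Nos2. Ccl8 was at 1738 and 1010 CPM in 468 and 406 resident cells (ratio 0.581), at 88.6 and 64.0 CPM in 650 and 630 lipid-associated cells (0.722) and at 118 and 21.1 CPM in 220 and 215 inflammatory cells (0.179). The intervals of these ratios, 0.560 to 0.603, 0.647 to 0.806 and 0.131 to 0.239, did not overlap. Ccl12 was less uneven, at 280 and 182, 98.0 and 77.0, and 141 and 71.6 CPM. Ccl2 did not follow: its ratio was 0.892 in resident, 1.37 in lipid-associated and 1.20 in inflammatory cells. Ccl7 was at 1990 and 1534 CPM in resident cells (0.771) and at 655 and 793 CPM in lipid-associated cells (1.21). Whether the subset ratios differ could not be tested with 1 library per condition.

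**Figure D3:**
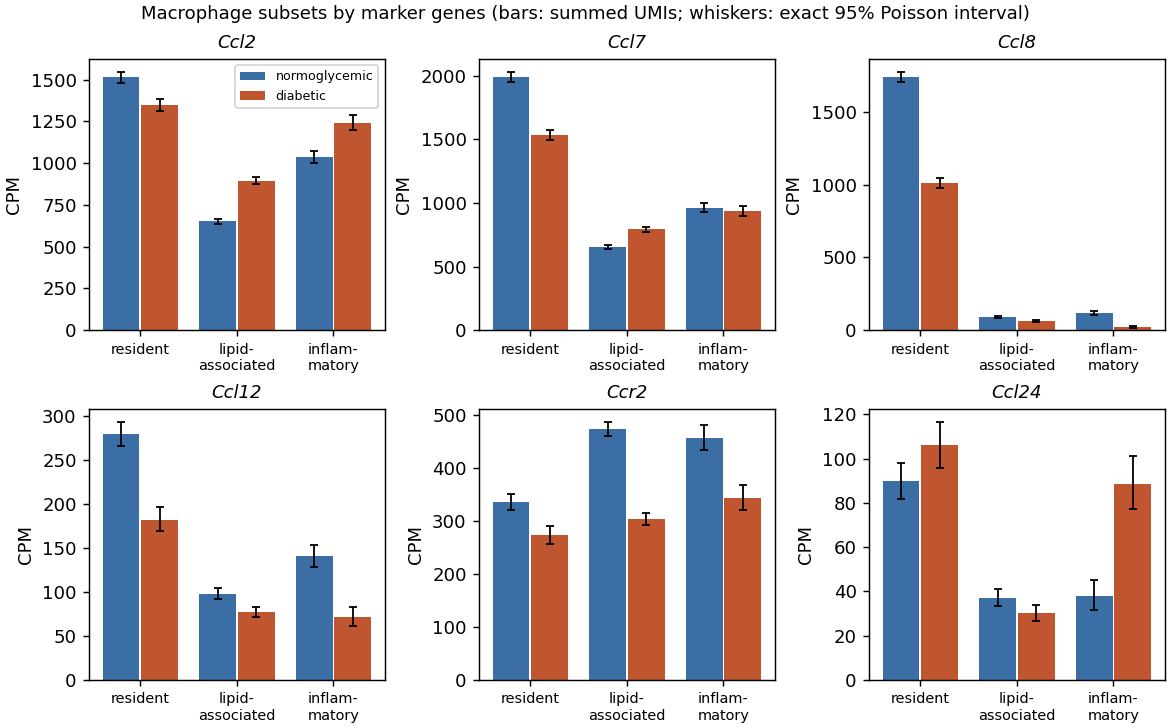
Bars give the CPM of 6 genes in 3 marker-set macrophage subsets of the normoglycemic (blue) and diabetic (orange) library, with exact 95% Poisson whiskers. Ccl8 is concentrated in resident cells and lower in the diabetic library in each subset, whereas Ccl2 is lower in resident and higher in the other subsets.

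In monocytes, the cells that CCR2 brings into tissue, Ccl7 and Ccl2 were lower in the diabetic library and Ccl24 was higher. Of 6 tested members, 3 were lower and 1 higher, beside 8.98% and 7.41% of 6557 genes. The third lower member, Ccl12, had only 10.8 and 5.95 CPM. Ccl7 was at 337 CPM in 869 normoglycemic and 122 CPM in 803 diabetic monocytes (0.361, 0.337 to 0.387) and Ccl2 at 1050 and 692 CPM (0.660, 0.639 to 0.681). In the cells called male the Ccl7 decrease held, whereas the Ccl2 ratio of 0.811 was within 1.5-fold, as was that by clusters (0.879). In 594 and 365 male cells Ccl2 was at 1127 and 914 CPM and Ccl7 at 361 and 142 CPM. In cells called female, 46 normoglycemic and 231 diabetic, Ccl2 was at 243 and 374 CPM (1.54) and Ccl7 at 29.3 and 66.2 CPM (2.26), the opposite direction. Female cells thus had less Ccl2 and Ccl7 than male cells in both libraries, and they were a larger part of the diabetic monocytes. Cells of either call come from different mice, and the part of this in the monocyte ratios was not tested.

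Ccl24 was at 37.4 CPM in normoglycemic and 121 CPM in diabetic monocytes (3.24, 2.87 to 3.66), with 57 and 89 cells holding a UMI. The ratio stayed between 2.42 and 6.28 over the settings tried. Cells called male were at 32.6 and 205 CPM, while female cells had 2.10 and 3.57 CPM in 1 and 10 UMIs. After thinning, 2.54% (1.60% to 3.82%) and 3.63% (2.45% to 5.18%) of monocytes had a Ccl24 UMI, with overlapping intervals, against 0.697% and 1.42% of B cells. Without thinning these shares were 6.56% and 11.1% in monocytes, with medians of 11162 and 10531 UMIs, and 1.73% and 3.55% in B cells. Monocytes scored as inflammatory were 720 of 869 and 577 of 803 cells. They held 340 of 362 and 1022 of 1038 Ccl24 UMIs, at 41.2 and 161 CPM (3.92). Lipid-associated monocytes had 25.5 and 5.99 CPM, and those of no subset 1.66 and 4.68 CPM. Macrophages had 52.5 and 58.4 CPM (1.11), and their inflammatory subset 37.9 and 88.6 CPM (2.34).

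**Figure D4:**
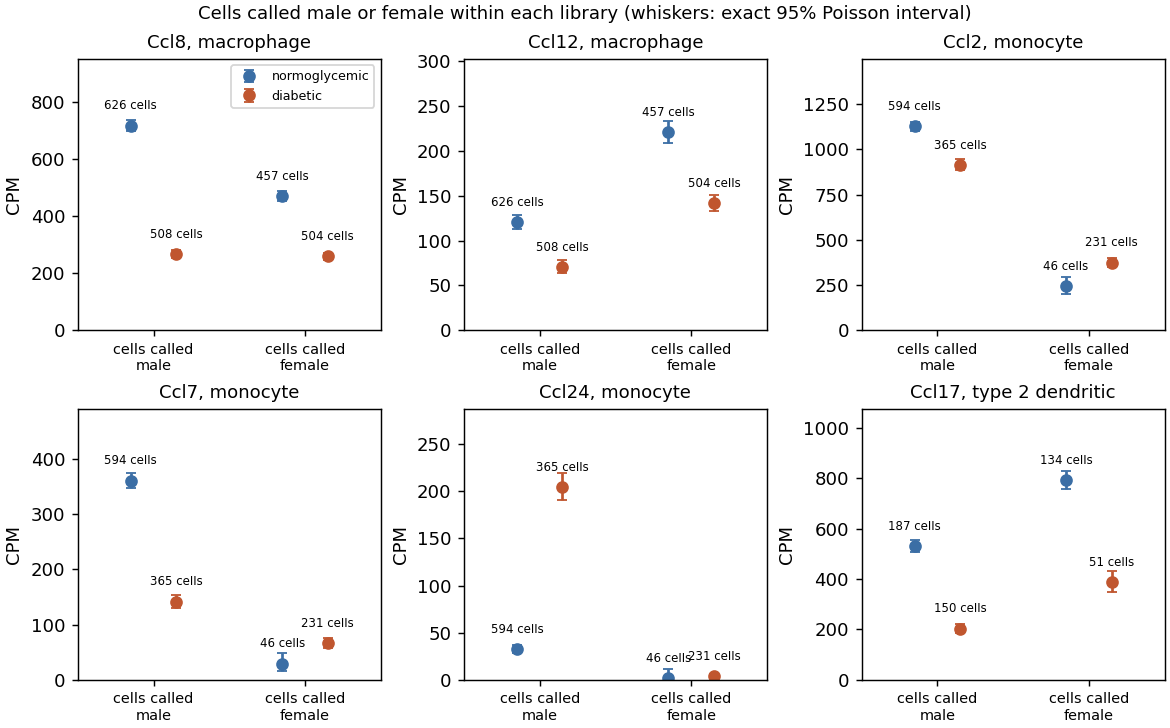
Points give the CPM of 6 gene and class pairs in cells called male or female, with exact 95% Poisson whiskers and the number of cells (blue, normoglycemic library; orange, diabetic library). Ccl8 and Ccl12 in macrophages and Ccl17 in type 2 dendritic cells are lower in the diabetic library in both sexes, whereas in monocytes Ccl7 is lower in male and higher in female cells, and Ccl2 is within 1.5-fold in male and higher in female cells.

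Mast cells and fibroblasts, the other strong sources, moved in opposite directions. In mast cells Ccl2 fell from 7130 to 4678 CPM (0.656, 0.591 to 0.727), and between 0.567 and 0.698 over the settings tried, while Ccl7 was at 0.721, or 0.580 without the top cell of each library. That made 1 of 2 tested members lower and 0 higher, beside 22.5% and 15.6% of 2068 genes. In fibroblasts Ccl2 was at 739 and 1253 CPM (1.70) and Ccl7 at 436 and 790 CPM (1.81), which made 2 of 3 tested members higher and 0 lower, beside 22.1% and 16% of 8743 genes. Only 21 normoglycemic fibroblasts were captured, and 1 of them held 58.2% of their Ccl2 UMIs. Without the top cell of each library the ratios were 3.10 and 3.16, whereas in clusters they were 1.13 and 1.37, and the Ccl7 ratio was 1.22 with cells weighted equally. The 21 cells also had 1019 CPM of the leukocyte chemokine gene Ccl3, against 149 CPM in the diabetic fibroblasts. Its part in the ratios was not tested. With 254 cells, diabetic fibroblasts held 12.9% of the Ccl2, 12.6% of the Ccl7 and 7.58% of the Ccl8 UMIs of their library, against 0.607%, 0.454% and 0.247% in the normoglycemic one.

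Neutrophils, 50.2% and 49.5% of the cells, had little of any ligand. Their Ccl2 was at 54.0 and 97.3 CPM (1.80), against 15.7 and 7.84 CPM in B cells, and the ratio was 1.33 once the highest doublet scores were removed and 1.20 in cells called female. Different clusters held most neutrophils of the libraries: 1 cluster had 12 normoglycemic and 1482 diabetic cells, and others 978 and 52, 895 and 145, 841 and 48, and 1 and 419. Of 7 tested members 3 were higher (Ccl2, Ccl22 and Ccl24) and 1 lower (Ccl17), beside 15.7% and 12.6% of 4357 genes. Ccl17, Ccl22 and Ccl24 were at most 13.6 CPM in either library, and a single cell held 41.5% or more of their UMIs in the library where each was higher.

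Ccr2 was spread widely and mostly stayed within 1.5-fold between the libraries. In the normoglycemic library it was highest in T cells of the gamma-delta or type 17 class, at 561 CPM (523 to 601), above all other classes. Regulatory T cells (465 CPM), monocytes (464 CPM), type 2 conventional dendritic cells (435 CPM) and macrophages (431 CPM) followed. The interval of regulatory T cells (428 to 505) overlapped those of the other 3, and the intervals of type 2 dendritic cells (420 to 450) and macrophages (422 to 440) overlapped each other. Type 2 innate lymphoid cells had 268 CPM, type 1 conventional dendritic cells 215 CPM and alpha-beta T cells 146 CPM. Langerhans cells, which live in the epithelium, had 54.8 CPM and mature dendritic cells 3.09 CPM, while neutrophils had 35.7 CPM. In the diabetic library the gamma-delta or type 17 class (551 CPM) was again first, before monocytes (446 CPM). Of the 11 classes with a tested ratio, 9 stayed within 1.5-fold, among them monocytes (0.961, 0.920 to 1.003), gamma-delta or type 17 T cells (0.981, 0.877 to 1.10) and type 2 dendritic cells (0.883). Macrophages had 431 and 311 CPM (0.722, 0.696 to 0.748), and the lipid-associated subset 473 and 303 CPM (0.642). After thinning, 29.3% (26.9% to 31.7%) and 21.6% (19.4% to 23.9%) of macrophages had a Ccr2 UMI, against 1.11% and 0.839% of neutrophils. Without thinning these were 64.8% and 49.0% of macrophages and 4.20% and 2.80% of neutrophils, whose medians were 4063.5 and 3478 UMIs.

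The 2 classes in which Ccr2 was called lower were regulatory T cells and B cells. Regulatory T cells had 465 and 298 CPM (0.640, 0.511 to 0.795) in 220 and 52 cells, but the ratio was 1.02 when cells were classed by clusters. B cells had 36.8 and 2.61 CPM, the first at the level of neutrophils. Receptor and ligand were found together in many cells: 69.2% of normoglycemic and 52.5% of diabetic macrophages with a Ccl2 UMI also had a Ccr2 UMI, beside 64.8% and 49.0% of all macrophages. In monocytes these shares were 76.6% and 76.2%, beside 68.0% and 66.9% of all.

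The CCR4 ligands came from dendritic cells. Ccl22 was highest in mature dendritic cells, which carry Ccr7 and travel to lymph nodes, at 3841 CPM in 68 normoglycemic and 2720 CPM in 70 diabetic cells (0.708, 0.673 to 0.745), and they held 53.4% and 66.1% of its UMIs. Langerhans cells came next at 193 and 191 CPM. Ccl17 in the normoglycemic library was at 901 CPM in mature dendritic cells, 615 CPM in type 2 conventional dendritic cells, 452 CPM in Langerhans cells and 182 CPM in type 1 conventional dendritic cells, and B cells had 0.604 CPM. Every normoglycemic mature dendritic cell with a Ccl17 UMI, 38 in number, also had a Ccl22 UMI, as did 30 of 31 diabetic ones. In type 2 dendritic cells 61 of 165 such normoglycemic cells did. Of all mature dendritic cells, 88.2% of normoglycemic and 77.1% of diabetic ones had a Ccl22 UMI, and of all normoglycemic type 2 cells 21.5%.

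Ccl17 was lower in the diabetic library in all 3 non-mature dendritic cell classes. Type 2 conventional dendritic cells had 615 and 256 CPM in 391 and 259 cells (0.416, 0.388 to 0.445), between 0.315 and 0.625 over the settings tried. The decrease was present in cells called male (530 and 203 CPM) and in cells called female (793 and 388 CPM). After thinning, 19.5% (15.7% to 23.8%) and 7.72% (4.78% to 11.7%) of them had a Ccl17 UMI, and 42.2% and 18.5% without thinning, with medians of 17688 and 15385 UMIs. B cells had 0 of 287 and 0 of 141 thinned cells, which by the limit of 3 counts allows shares of up to 1.05% and 2.13% (upper Clopper-Pearson bounds 1.28% and 2.58%). Type 1 conventional dendritic cells had 182 and 69.2 CPM (0.381, 0.333 to 0.435), and Langerhans cells 452 and 78.1 CPM (0.173, 0.128 to 0.229) in 85 and 38 cells. After thinning, 7.98% (4.72% to 12.5%) and 4% (1.85% to 7.46%) of type 1 cells had a Ccl17 UMI, and 18.6% and 10.7% without thinning. In Langerhans cells these were 15.3% (8.40% to 24.7%) and 2.63% (0.0666% to 13.8%), and 27.1% and 21.1%. In both classes the intervals of the libraries overlapped. The diabetic Langerhans level rested on 53 UMIs in 8 cells, and 1 diabetic type 1 cell held 37.0% of its class's Ccl17 UMIs. The type 1 ratio ranged from 0.301 to 0.686 over the settings tried, the last in cells called male and within 1.5-fold, and the Langerhans ratio from 0.0639 to 0.398. Ccl22 was also lower, at 111 and 63.4 CPM in type 2 (0.573) and 64.4 and 28.0 CPM in type 1 cells (0.435), but in cells called male neither passed 1.5-fold, with ratios of 0.910 and 1.19. In Langerhans cells the ratio of Ccl22 was 0.990 (0.798 to 1.22). Mature dendritic cells went the other way for the level of Ccl17, at 901 and 1651 CPM (1.83), but 1 diabetic cell held 29.4% of the UMIs, and the ratio was 1.63 without the top cells, 1.22 in clusters and 0.900 with a stricter gate. The share of mature dendritic cells with a Ccl17 UMI did not rise with the level. It was 55.9% and 44.3%, and after thinning 32.4% (21.5% to 44.8%) and 23.5% (14.1% to 35.4%), with overlapping intervals. Cells without a class held 19.8% and 41.9% of the Ccl17 UMIs, and of these 55.7% and 37.1% lay in cells nearest to type 2 dendritic cells. In all cells without a class Ccl17 was at 191 and 244 CPM, not lower in the diabetic library.

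Type 2 conventional dendritic cells had 4 of 5 tested members lower and 0 higher, beside 8.73% and 6.94% of 7044 genes, with a median log2 ratio of -0.80 against 0.01 for all genes. The other 2 were Ccl2 (120 and 69.3 CPM, 0.576) and Ccl7 (51.4 and 13.7 CPM, 0.267), whose ratios were 1.05 and 1.48 in clusters. In cells called female the Ccl2 ratio was 2.13. Type 1 conventional dendritic cells had 3 of 6 lower and 0 higher, beside 6.43% and 5.05% of 6890 genes, the third being Ccl8 at background level. Langerhans cells had 1 of 4 lower and 1 higher, beside 16.5% and 13.4% of 7304 genes. The higher one was Ccl2 (18.9 and 143 CPM), of which 1 diabetic cell held 86.6%, and its ratio was 1.13 without the top cells. Mature dendritic cells had 3 of 5 lower and 1 higher, beside 20.1% and 10.5% of 6208 genes. The lower ones were Ccl2, Ccl7 and Ccl24, each with 53 or fewer UMIs in a library.

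Ccr4, the receptor of those ligands, was found mainly in T cells, with 70 of the 176 normoglycemic UMIs in alpha-beta T cells, 52 in regulatory T cells and 11 in the gamma-delta or type 17 class. Regulatory T cells had 41.9 CPM (31.3 to 55.0) in 52 normoglycemic UMIs and 18.4 CPM (6.77 to 40.1) in 6 diabetic UMIs, a ratio of 0.440 that was called lower although its interval, 0.154 to 1.02, includes 1. Alpha-beta T cells had 25.5 and 18.7 CPM (0.733, 0.422 to 1.22). Type 2 innate lymphoid cells had 4 UMIs in each library, and macrophages 2 and 0. Without the top cell of each library the ratio was 0.323 (0.0845 to 0.881) in regulatory T cells, from 48 and 4 UMIs, and 0.644 (0.347 to 1.13) in alpha-beta T cells. Regulatory T cells fell from 2.01% of normoglycemic cells (1.75% to 2.29%) to 0.507% of diabetic cells (0.379% to 0.664%), and the part of these numbers in the Ccr4 total was not tested.

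In lymphoid classes the ligand calls rested on few UMIs, and the backgrounds were wide. Regulatory T cells had 4 of 5 tested members lower and 0 higher, beside 25% and 12.6% of 6847 genes. Among these were Ccl2 (76 and 3 UMIs) and Ccl7 (66 and 1 UMIs), and 1 normoglycemic cell held 45.5% of the Ccl7. Alpha-beta T cells had 1 of 5 lower and 0 higher (17.8% and 8.35% of 7508 genes), the gamma-delta or type 17 class 3 of 6 lower and 1 higher (18.3% and 6.59% of 7309 genes), B cells 2 of 4 lower and 0 higher (24.9% and 8.07% of 7110 genes), and type 2 innate lymphoid cells 0 of 1 in either direction (25.8% and 11.4% of 3800 genes). The Ccl17 of that T cell class (95.1 and 1.09 CPM) lay to 92.0% in 1 cell.

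**Figure D5:**
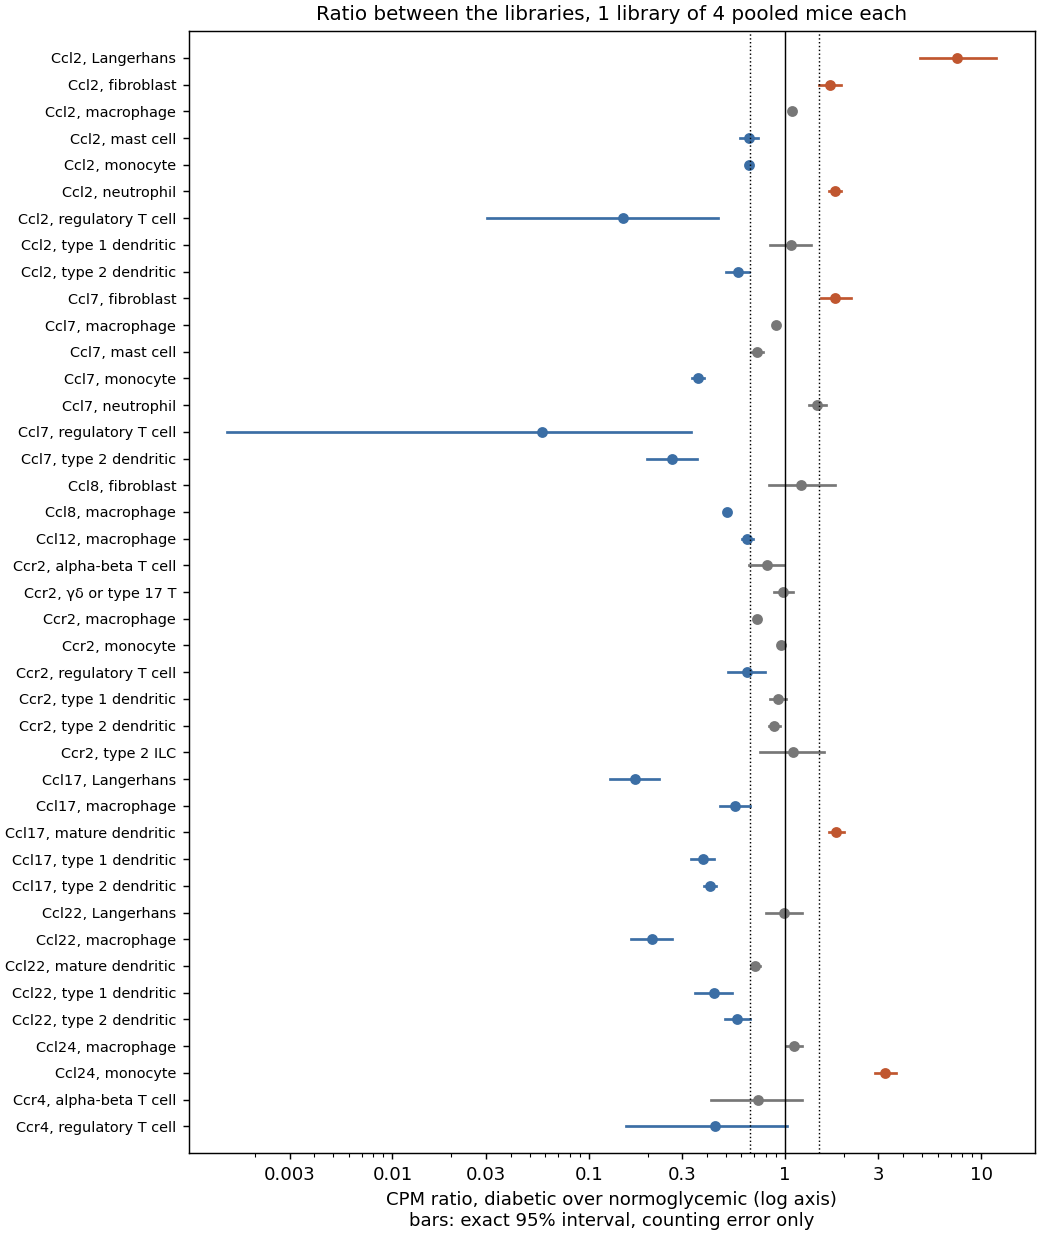
Points give the CPM ratio of diabetic over normoglycemic for 41 gene and class pairs (log axis), with exact 95% intervals for counting error (blue, called lower; orange, called higher; grey, within 1.5-fold, dotted lines). Ccl8 and Ccl12 in macrophages and Ccl17 in 3 dendritic cell classes lie below 1, Ccl24 in monocytes lies above it, and most Ccr2 ratios are close to 1.

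Over the 14 classes, 67 pairs of a member and a class were tested, of which 30 were lower and 9 higher. Of all genes, 3.98% (macrophages) to 25.8% (type 2 innate lymphoid cells) were lower, by class. The shares higher ran from 2.41% (macrophages) to 22.1% (fibroblasts). No share of all genes was computed over the pooled classes, so the pooled counts are no result about the members. Of the 67 pairs, 41 were at least 3 times above the level of a background class and still tested without the top cell of each library. Background classes were B cells for the ligands and neutrophils for the receptors. Among the 41, 18 were lower, 6 higher and 17 within 1.5-fold. All 18 lower and 5 of the 6 higher pairs kept their call without the top cells, while 4 of the 17 within 1.5-fold then passed it (Ccl7 in neutrophils and mast cells, Ccl8 in fibroblasts and Ccr4 in alpha-beta T cells). Pairs that could not be tested without the top cells had been left out first, so the calls kept are no independent check.

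The receptors that share these ligands varied by class. Ccr1, which binds CCL7, was at 1198 and 1287 CPM in neutrophils and fell from 595 to 345 CPM in monocytes (0.580), while it rose from 78.4 to 171 CPM in type 2 dendritic cells (2.18). Its ratio was also low in mature dendritic cells (0.338), alpha-beta T cells (0.477), regulatory T cells (0.487), B cells (0.229) and fibroblasts (0.666, 0.345 to 1.44). In these classes 16% to 25% of all genes were lower. Ccr8, the receptor of mouse CCL8, was found in regulatory T cells (30.6 and 30.7 CPM) and type 2 innate lymphoid cells (86.2 and 68.1 CPM). Ccr3, the receptor of CCL24, was at 8.44 and 4.26 CPM in neutrophils and had 22 normoglycemic and 0 diabetic UMIs in regulatory T cells. It is itself a marker of the eosinophil gate, which took 2 normoglycemic and 0 diabetic cells. Ackr2, a scavenger of inflammatory CC chemokines, was at 3.18 and 15.9 CPM in fibroblasts, from 1 normoglycemic and 63 diabetic UMIs, a ratio of 4.99 (0.864 to 200.3) whose interval includes 1.

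Of 14 other chemokine receptors and scavengers, monocytes had 2 of 4 higher, Ccrl2 (586 and 896 CPM, 1.53) and Cx3cr1 (35.8 and 77.5 CPM, 2.16), and Ccr1 lower, beside 7.41% of all genes higher and 8.98% lower in that class. The counts for the other lists stand beside the same shares, which were 2.41% and 3.98% in macrophages, 6.94% and 8.73% in type 2 dendritic cells, 10.5% and 20.1% in mature dendritic cells, 15.6% and 22.5% in mast cells and 22.1% and 16% in fibroblasts.

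Among 14 other CC chemokines, none of the 5 tested in macrophages or the 5 in monocytes passed 1.5-fold, with median log2 ratios of 0.33 and -0.32. In macrophages Ccl4 was at 3040 and 3818 CPM and Ccl6 at 1218 and 1768 CPM, in contrast to the lower Ccl8 and Ccl12. Type 2 dendritic cells had 1 of 5 higher, Ccl4 (1157 and 2682 CPM, 2.32), and 1 lower, Ccl6 (503 and 267 CPM, 0.532). Mature dendritic cells had 4 of 5 lower, among them Ccl3 (1722 and 156 CPM, 0.0908). In fibroblasts the eotaxin gene Ccl11 was at 242 and 1020 CPM (4.22).

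Of 16 inducers of monocyte chemoattractants, 14 were tested in macrophages and 0 passed in either direction. In monocytes 2 of 13 were lower, the bacterial lipoprotein receptor gene Tlr2 (611 and 396 CPM, 0.649) and its adaptor gene Myd88 (85.0 and 50.3 CPM, 0.591), and 0 were higher. Type 2 dendritic cells had Tlr2 (0.650) and Il6 (0.336) lower and Jun (2.59) higher, of 12 tested. Of 20 genes of the type 2 cytokine and GM-CSF axis, macrophages had 2 of 12 lower, Kdm6b (659 and 425 CPM, 0.646), a histone demethylase, and Irf4 (27.6 and 17.3 CPM, 0.628), a transcription factor of interleukin 4 responses, and 0 higher. In type 2 dendritic cells Il1rl1, the receptor gene of interleukin 33, fell from 62.2 to 20.2 CPM (0.325), and Kdm6b from 847 to 559 CPM (0.660). Mast cells had Il4 at 284 and 166 CPM (0.585) and Il13 at 113 and 17.5 CPM (0.156, from 19 and 2 UMIs), 2 of their 4 lower genes among 8 tested. Of 16 CCR2 signalling and protease genes, 14 were tested in macrophages and 1 was higher, Mmp9 (9.24 and 27.4 CPM, 2.97), itself a neutrophil marker of the gate, and 0 were lower.

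Genes whose level over 34 points (a class in a library with at least 20 cells) was most like each member were found among 13241 genes by Pearson's r of log2(CPM + 1). The points share libraries and classes, so r is a description. Ccl12 was most like Siglec1 (0.813) and Stab1 (0.804), and Ccl8 like Vsig4 (0.728), which are known from resident macrophages. Ccr2 was most like Pstpip1 (0.897), Ccl17 like Strip2 (0.889) and Ccl22 like Tspan33 (0.908), with Strip2 second for Ccl22 (0.881). Ccl2 was most like Snx24 (0.867), Ccl7 like Itga9 (0.878) and Ccl24 like Ms4a4a (0.745). For Ccr4, Icos, a costimulatory receptor of T cells, came second (0.911) after Gm42722 (0.924).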

How the data were processed

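The deposited files hold raw UMI counts per gene and cell barcode, which the authors made with Cell Ranger (4.0.0 per the file headers, 6.0.2 per the submitters' processing notes) on build mm10 from Chromium 3' v3 libraries. The matrices held 11280 normoglycemic and 10496 diabetic barcodes with 89339733 and 78220582 UMIs, and no barcode under 500 UMIs. The 9 members, the marker genes and the gene lists were chosen with earlier results of these data known.

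Cells with at least 500 UMIs, 200 genes and at most 15% mitochondrial UMIs were kept, which left out 332 and 236 barcodes. Scrublet called 0 doublets in either library where 9.02% and 8.40% were expected, so it had not worked, and doublets remain. For each class, a cell's score was the mean over markers of the log-scaled level divided by its 90th percentile in cells with the marker, at most 1. Counts were summed per class and library, with exact Poisson, Clopper-Pearson (for shares of cells) and conditional binomial intervals. With 1 library per condition no p-value was computed. The genes named are the 9 members, the members' other receptors, up to 4 genes per list that passed and the 3 most alike genes per member. Which of these the text describes was chosen after their values were seen, as was the limit of 3 times the background. Alternatives were TMM (edgeR 4.0.16) and size factor (DESeq2 1.42.0) scaling, cells weighted equally, Leiden clusters (resolution 1.5, scanpy 1.11.5) formed without the members, other gates and filters, sexes, and thinning. The computation of the ratio, interval and calls was checked on simulated counts. These were drawn from Poisson distributions, as the intervals assume, so the check does not cover spread between cells or mice. Antibody capture counts were kept apart. One receptor of the naming rule is not reported here.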

Additional observations from a re-analysis of the deposited data

Results flagged for a closer look

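The ligand genes Ccl2, Ccl7 and Ccl17 were called higher in some classes and lower in others between the same libraries. These differences between classes were not tested, since each condition had 1 library. The diabetic over normoglycemic ratio of Ccl2 was 1.80 in neutrophils and 1.70 in fibroblasts, but 0.660 in monocytes, 0.656 in mast cells, 0.576 in type 2 conventional dendritic cells and 0.15 in regulatory T cells, the last from 76 and 3 UMIs. Ccl7 had a ratio of 1.81 in fibroblasts against 0.361 in monocytes, 0.267 in type 2 conventional dendritic cells and 0.0577 in regulatory T cells, the last from 66 and 1 UMIs. For Ccl17 the ratio was 1.83 in mature dendritic cells against 0.560 in macrophages, 0.416 in type 2 and 0.381 in type 1 conventional dendritic cells and 0.173 in Langerhans cells. Several of these calls did not hold under other settings. With a stricter lead, Ccl17 was at 0.900 in mature dendritic cells and 1.07 in macrophages. By clusters, Ccl2 was at 1.13 in fibroblasts and Ccl7 at 1.48 in type 2 conventional dendritic cells. In cells called female, Ccl2 was at 2.13 in type 2 conventional dendritic cells and 1.54 in monocytes, and Ccl7 at 2.26 in monocytes.

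The files also hold 4 antibody capture features that no comparison used. They had 685010 UMIs in the normoglycemic and 245491 UMIs in the diabetic cells analysed. What the antibodies bind was not given in the sources used here.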

How the results depend on the processing

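No paired analysis was possible because each condition had 1 library. The 24 called ratios followed here stood at least 3 times above background and could still be tested without the top cell of each library. Called pairs that could not were left out, so removal of the top cell is no independent check of these 24. None changed direction, meaning the side of 1, under TMM or size factor scaling, equal weight per cell, no lead in the gate or removal of the top cell. Nor did any of those that stricter cell filters (22) or thinning (20) still gave. A kept direction is not a kept call. Ccl7 in fibroblasts was at 1.22 with cells weighted equally, and Ccl2 in Langerhans cells at 1.13 without the top cells. Among cells called female, 4 of 13 reversed: Ccl2 in monocytes (1.54), Ccl7 in monocytes (2.26), Ccl22 in macrophages (1.29) and Ccl2 in type 2 conventional dendritic cells (2.13). Among cells called male, Ccl22 in type 1 conventional dendritic cells did (1.19). With a stricter lead, Ccl17 reached 1.07 in macrophages and 0.900 in mature dendritic cells, and with the highest doublet scores removed 1.05 in macrophages. By clusters, Ccl22 in macrophages (1.36), Ccl2 (1.05) and Ccl7 (1.48) in type 2 conventional dendritic cells and Ccr2 in regulatory T cells (1.02) reversed. The causes were not tested.

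The count of 9 higher pairs was 5 with cells weighted equally, 4 by clusters, 5 with the highest doublet scores removed, 5 after thinning to 1000 UMIs, 4 at a fold of 2 and 21 with no minimum CPM and 5 UMIs. The count of 30 lower pairs was 17 in cells called male, 16 in cells called female, 13 after thinning, 18 at a fold of 2 and 17 with minima of 50 CPM and 50 UMIs. TMM moved the median log2 ratio of all genes by -0.19 in neutrophils, 0.14 in B cells and 0.11 in mature dendritic cells, and size factors by -0.23, 0.13 and, in gamma-delta or type 17 T cells, 0.12. Depth limits Ccr4 most, with 42 diabetic UMIs.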
